A study of Bos taurus with 15 samples.

Results

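CEBPG and BIK are 2 protein-coding genes with a role in cell stress and cell death. They were chosen by name, as the rows CEBPG and BIK among the 31999 rows of a count table of bovine morulae, and both rows were found. The choice was made with earlier results of these data known. The morula is the stage at which the cleaving cells of the embryo form a compact ball. The table held 15 RNA-seq libraries in 3 groups of 5. Androgenetic embryos were haploid and carried only a sperm genome. Parthenogenetic embryos were haploid and carried only an oocyte genome. ICSI embryos were diploid and were made by intracytoplasmic sperm injection. The library titles tagged androgenetic libraries TII and parthenogenetic libraries CHX, and the labels did not explain these tags. The labels gave no breed, bull, oocyte donor, day or number of embryos per library. Each group was made by its own procedure, so procedure and parental genome cannot be told apart in any contrast. Ploidy differs in the contrasts with ICSI only, and there it cannot be told apart from them.

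CEBPG is a small basic leucine zipper protein of the C/EBP family. It has no activation domain of its own and works in pairs with other leucine zipper proteins, among them ATF4. ATF4 is the main effector of the integrated stress response, in which kinases that sense amino acid shortage, misfolded protein, haem deficiency or viral RNA slow general translation while ATF4 itself is translated, and in mouse and human cells ATF4 and CEBPG bind together at genes for amino acid synthesis, transport and tRNA charging. BIK is a BH3-only member of the BCL2 family. In human cells it sits mainly at the endoplasmic reticulum, binds the anti-apoptotic members of the family and so frees BAX and BAK to open the outer mitochondrial membrane.

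Library totals were 19968077 to 28981601 counts. Androgenetic replicate 6 had the fewest rows with at least 1 count (13564), followed by ICSI replicate 5 (15286) and parthenogenetic replicate 6 (16154), and the others had 16665 to 19950. Androgenetic libraries were less alike (mean Spearman correlation with their own group 0.68 to 0.75) than parthenogenetic (0.79 to 0.87) and ICSI libraries (0.80 to 0.89). The library most like androgenetic replicate 4 was ICSI replicate 4 (0.846), ahead of the best match among androgenetic libraries (0.792). Parthenogenetic replicates 2, 3, 5 and 6 were likewise most like an ICSI library (0.886, 0.918, 0.909 and 0.809). Their best matches among parthenogenetic libraries were slightly lower (0.872, 0.911, 0.908 and 0.796). SNURF, which mammals transcribe from the paternal allele, averaged 212 ± 62.2 CPM in the androgenetic group, 0.700 ± 0.652 CPM in the parthenogenetic group and 120.1 ± 48.0 CPM in the ICSI group (SD, n = 5 each), with no overlap between the parthenogenetic and the other libraries. Of the 11 embryo markers looked up by symbol, SOX2 alone had a row (androgenetic mean 2.50 CPM, parthenogenetic mean 4.84 CPM, ICSI mean 2.58 CPM), and none of the 7 markers of cumulus and other somatic cells had one under its symbol, so the labelled stage could not be checked further.

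CEBPG RNA was present in all 15 libraries and was highest on average in androgenetic morulae. In androgenetic replicates 1, 2, 4, 5 and 6 it stood at 22.4, 13.9, 25.7, 37.96 and 80.5 CPM, the counts relative to library size after scaling by TMM factors. In parthenogenetic replicates 1, 2, 3, 5 and 6 it stood at 10.1, 11.3, 19.1, 9.86 and 16.4 CPM. In ICSI replicates 1 to 5 it stood at 32.8, 27.1, 23.8, 9.60 and 19.0 CPM. Parthenogenetic libraries reached 19.1 CPM at most, and the lowest library of all was ICSI replicate 4. Androgenetic replicate 6 was far above every other library, and the ranges of all 3 groups overlapped. All 5 androgenetic libraries were above the parthenogenetic median, and in 23 of the 25 pairings of an androgenetic with a parthenogenetic library the androgenetic one was higher. Against ICSI, 3 androgenetic libraries were above the ICSI median, and the androgenetic library was higher in 16 of the 25 pairings. The counts behind these values ran from 226 in androgenetic replicate 2 (exact Poisson 95% interval 197 to 257) to 1487 in androgenetic replicate 6 (1412 to 1565), so counting error was small beside the spread between libraries. Such intervals cover counting error only, since no molecular identifiers are recorded.

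**Figure D1:**
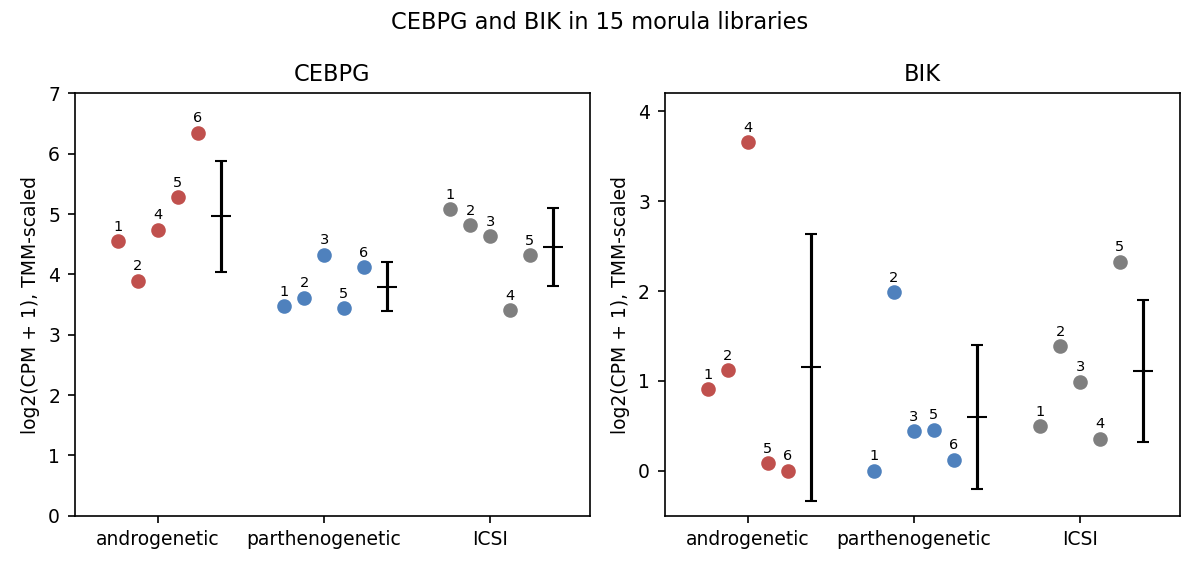
TMM-scaled expression of CEBPG (left) and BIK (right) on the log2(CPM + 1) scale, with 1 point per library, its replicate number above it, and the mean and SD (n = 5) beside each group. CEBPG is detected in every library and lowest on average in the parthenogenetic group, while BIK runs from 0 counts to 11.6 CPM within the androgenetic group alone.

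CEBPG averaged 36.1 ± 26.3 CPM in androgenetic morulae, 13.3 ± 4.16 CPM in parthenogenetic morulae and 22.5 ± 8.79 CPM in ICSI morulae (SD, n = 5 each). Androgenetic morulae thus had a mean above, and parthenogenetic morulae a mean below, the ICSI mean, but the neighbours in this order did not differ beyond their spread. The log2 fold change of androgenetic against ICSI was 0.68 ± 0.49 (SE; 95% interval -0.35 to 1.72; edgeR quasi-likelihood test, adjusted p = 0.477). That of parthenogenetic against ICSI was -0.75 ± 0.49 (-1.79 to 0.28; edgeR adjusted p = 1). These values share the ICSI libraries. Between the ends of the order, androgenetic morulae had 2.71 times the level of parthenogenetic morulae, a log2 fold change of 1.44 ± 0.50 whose 95% interval lay above 0 (0.39 to 2.49). It did not pass over all 16375 rows tested (edgeR adjusted p = 0.129), and 7.82% of rows had a lower p in that contrast. An exact two-sided permutation test of the difference of mean log2(CPM + 1) between androgenetic and parthenogenetic libraries, 1.17, gave p = 0.0238, and 0.143 after adjustment over the 6 such tests of both genes. Since both genes were chosen with earlier results of these data known, adjustment over 6 tests does not cover that choice.

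At an adjusted p under 0.05, edgeR called neither gene in any of the 3 contrasts. Called rows made up 2.82% of those tested for androgenetic against ICSI (1.76% higher), 0.0733% for parthenogenetic against ICSI and 1.75% for androgenetic against parthenogenetic morulae. At an unadjusted p under 0.05, the difference of CEBPG between the haploid groups was the 1 that passed of the 6 comparisons of both genes, where 18.7% of all rows passed in the same contrast and 8.93% were higher. DESeq2 called CEBPG higher in androgenetic than in parthenogenetic morulae (log2 fold change 1.57 ± 0.49 SE, adjusted p = 0.0208), and limma voom did not (1.23 ± 0.52, adjusted p = 0.161). The median of all rows was 0.12 with DESeq2 and -0.45 with limma voom, so CEBPG stood 1.45 and 1.68 above it.

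**Figure D2:**
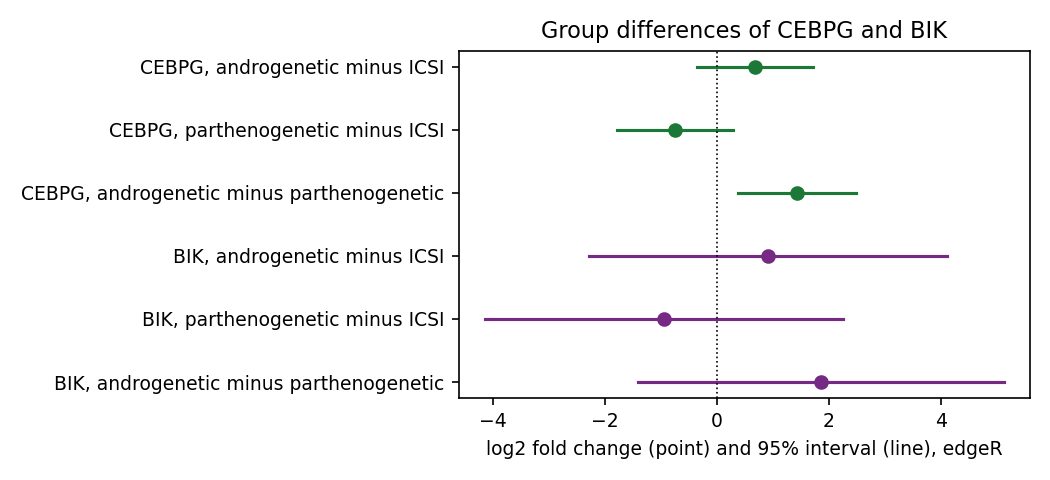
Log2 fold changes of CEBPG and BIK (points) with 95% intervals (lines) from edgeR's fit of all 15 libraries, for each pair of groups. The interval of CEBPG between the haploid groups, 0.39 to 2.49, is the 1 that leaves out 0, and the intervals of BIK are far wider than those of CEBPG.

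The size of the CEBPG difference rested in part on androgenetic replicate 6. Without that library, the one with fewest rows detected, the log2 fold change was 0.24 against ICSI (edgeR adjusted p = 0.778) and 0.99 against parthenogenetic morulae (edgeR adjusted p = 0.202). With the number of rows detected as a covariate the values were 0.12 and 1.05 (edgeR adjusted p = 0.933 and 0.290). Against ICSI that fit moved the median of all rows to 0.26, so that CEBPG stood at -0.14 relative to the median, the opposite direction. Across the 15 libraries CEBPG and the number of rows detected had Pearson's r = -0.448 (permutation p = 0.114) and Spearman's rho = -0.139 (permutation p = 0.624), adjusted p = 0.686 and 0.987 over 6 values, and without the 2 libraries with the most extreme numbers of rows r was -0.0234. The part of RNA yield or library complexity in the CEBPG level was not tested beyond this. In whole embryos, fewer cells that express a gene and less RNA per cell cannot be told apart.

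BIK was weakly expressed in most libraries, at 0 to 2 counts in some, and high in few. In androgenetic replicates 1, 2, 4, 5 and 6 it had 20, 19, 310, 1 and 0 counts. In parthenogenetic replicates 1, 2, 3, 5 and 6 it had 0, 77, 11, 12 and 2 counts. In ICSI replicates 1 to 5 it had 11, 43, 33, 9 and 86 counts. A single library held most of the counts of each haploid group: androgenetic replicate 4, at 11.6 CPM, and parthenogenetic replicate 2, at 2.97 CPM, made up 84.7% and 78.4% of the summed CPM of their groups. In the ICSI group the highest library, replicate 5 at 4.02 CPM, made up 55.0%, and all 5 libraries had counts. The 2 libraries at 0 counts allow up to 0.162 CPM (androgenetic replicate 6) and 0.107 CPM (parthenogenetic replicate 1) at a floor of 3 counts, so low expression there was not detectable at this depth. The 310 counts of androgenetic replicate 4 have an exact Poisson 95% interval of 276 to 347.

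BIK averaged 2.75 ± 4.999 CPM in androgenetic morulae, 0.758 ± 1.25 CPM in parthenogenetic morulae and 1.46 ± 1.52 CPM in ICSI morulae (SD, n = 5 each). The medians came in another order, at 0.877, 0.357 and 0.986 CPM. The SD exceeded the mean in each group, and the ranges of the groups overlapped. The log2 fold change was 0.91 ± 1.52 for androgenetic against ICSI (SE; 95% interval -2.27 to 4.10; edgeR adjusted p = 0.794) and -0.94 ± 1.52 for parthenogenetic against ICSI (-4.14 to 2.25; edgeR adjusted p = 1). Between the haploid groups it was 1.86 ± 1.56 (-1.41 to 5.13; edgeR adjusted p = 0.571). Exact permutation tests of mean log2(CPM + 1) gave p = 0.960, 0.341 and 0.556 in the same order. Each of the 3 intervals spans 0 widely on both sides, so the data set no useful bound on a difference of BIK and do not show that the groups were alike.

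The sign of the androgenetic difference of BIK rested on 1 library. Without androgenetic replicate 4, which was also the androgenetic library most like an ICSI library, the log2 fold change was -1.47 against ICSI and -0.53 against parthenogenetic morulae (edgeR adjusted p = 0.612 and 0.875). Without parthenogenetic replicate 2 it was -2.79 for parthenogenetic against ICSI and 3.70 for androgenetic against parthenogenetic morulae (edgeR adjusted p = 1 and 0.278). Without ICSI replicate 5 the values were 1.77 for androgenetic and -0.13 for parthenogenetic against ICSI (edgeR adjusted p = 0.607 and 1). CEBPG kept its signs without each of the 15 libraries in turn.

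**Figure D3:**
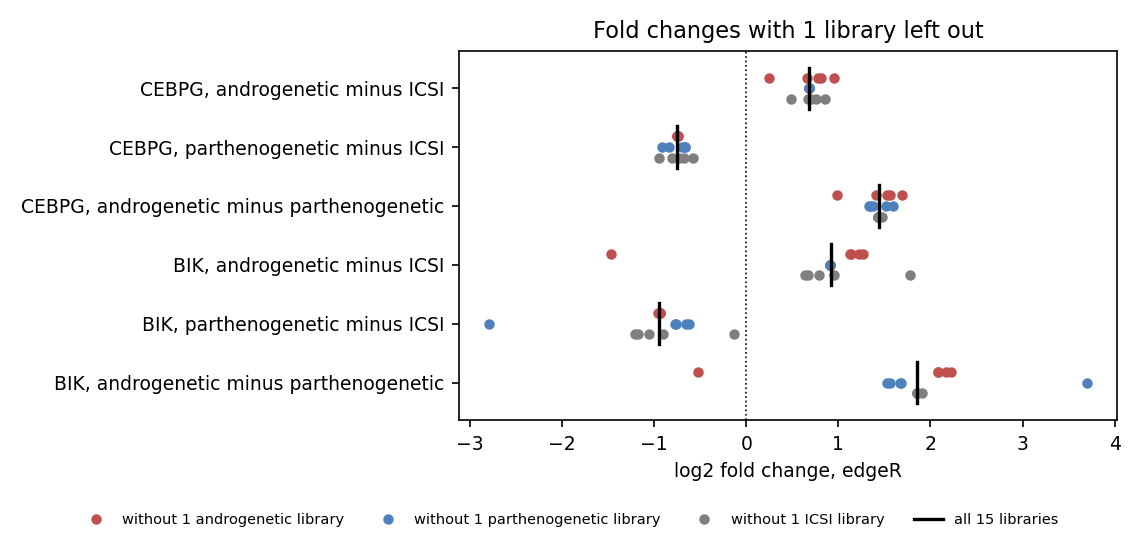
Log2 fold changes of CEBPG and BIK with each of the 15 libraries left out in turn (points, coloured by the group of the library left out) and with all libraries (black bars). CEBPG points stay on 1 side of 0, from 0.24 to 0.95 for androgenetic against ICSI, whereas the BIK difference between androgenetic and ICSI morulae falls to -1.47 without 1 androgenetic library.

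The spread of the 2 genes between libraries of a group differed. The biological coefficient of variation, edgeR's estimate of the spread that counting does not explain, was 0.572 for CEBPG and 1.53 for BIK, against 1.02 in common over all rows. At the abundance of each gene the fitted trend was 0.718 for CEBPG and 1.39 for BIK, so BIK stood near the trend of weakly expressed rows and CEBPG below that of its own abundance. Androgenetic replicate 6 had the most CEBPG and 0 counts of BIK, whereas androgenetic replicate 4, with the most BIK, had 25.7 CPM of CEBPG, above the ICSI mean. Over the 15 libraries the genes had Pearson's r = -0.0530 (permutation p = 0.897) and Spearman's rho = -0.00357 (permutation p = 0.987), with an adjusted p = 0.987 for each, and without the 2 libraries with the most extreme CEBPG values r was 0.336. BIK and the number of rows detected had r = 0.0944 (permutation p = 0.791) and rho = 0.0947 (permutation p = 0.736), adjusted p = 0.987 for each, and r was 0.141 without the 2 libraries with the most extreme numbers of rows.

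Each gene had a close companion among the rows named only by an Ensembl identifier. ENSBTAG00000017560 followed CEBPG with a correlation of log2(CPM + 1) of 0.981 over 15 libraries, where the next Ensembl row had 0.864, and ENSBTAG00000049724 followed BIK with 0.998, where the next had 0.911. These correlations are descriptions over libraries that share depth and scaling. Whether a companion is the same gene under another annotation, an overlapping gene or a copy was not checked, and the strand setting of the counting was not given, so neither gene is certain to be counted alone. The BIK companion differed from BIK by at most 10 counts in 14 libraries and by 27 in androgenetic replicate 4. Summing each gene with its companion gave a CEBPG log2 fold change of 1.66 ± 0.50 (SE) between androgenetic and parthenogenetic morulae (edgeR adjusted p = 0.0852). ENSBTAG00000017560 by itself had 1.93 ± 0.57 (edgeR adjusted p = 0.0824). It was picked for its likeness to CEBPG in these libraries, so neither value is independent of the CEBPG result.

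The companion of CEBPG never had more counts than CEBPG, and its share of the CEBPG counts varied by group. It was 97.3, 85.4, 88.0, 96.9 and 98.5% in androgenetic replicates 1, 2, 4, 5 and 6. It was 74.3, 61.6, 72.4, 44.9 and 76.2% in parthenogenetic replicates 1, 2, 3, 5 and 6, and 89.5, 74.8, 84.9, 56.5 and 97.0% in ICSI replicates 1 to 5. All androgenetic shares were above all parthenogenetic shares, and the ICSI shares overlapped both groups. The mean share was 93.2 ± 6.03% for androgenetic, 65.9 ± 13.0% for parthenogenetic and 80.5 ± 15.7% for ICSI libraries (SD, n = 5 each). The counts in CEBPG beyond those of the companion numbered 14 to 82 per androgenetic library, 73 to 174 per parthenogenetic library and 12 to 182 per ICSI library. In each group the highest share was that of the library with fewest rows detected. These were androgenetic replicate 6 (98.5%), parthenogenetic replicate 6 (76.2%) and ICSI replicate 5 (97.0%). The part of library complexity in the share was not tested. How many other pairs of rows part the haploid groups in this way was not counted. This share was examined after its values were seen and was given no test.

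**Figure D4:**
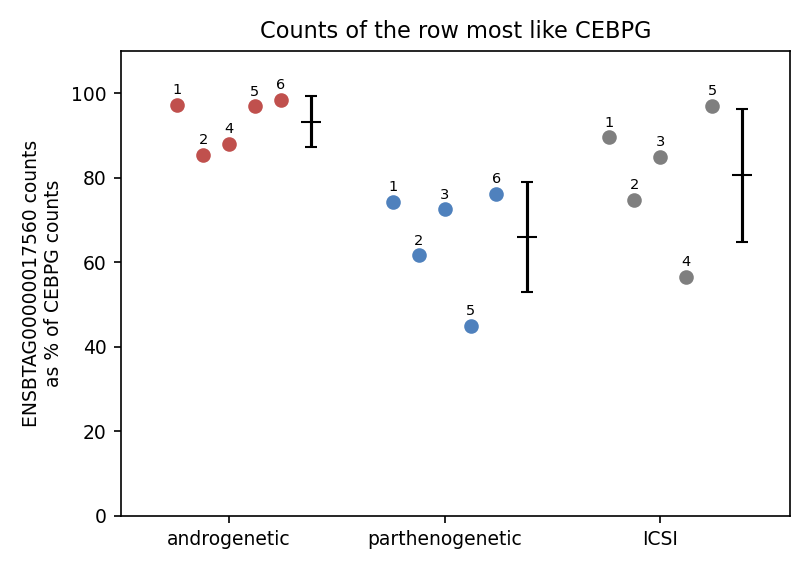
Counts of ENSBTAG00000017560, the Ensembl row most like CEBPG, as a percentage of CEBPG counts in each library (points with replicate numbers), with the mean and SD (n = 5) beside each group. Androgenetic libraries lie at 85.4 to 98.5% and parthenogenetic libraries at 44.9 to 76.2%, without overlap. The highest point of each group is its library with fewest rows detected.

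Most partners of CEBPG could not be followed by symbol. Of 51 genes listed for the integrated stress response, 13 had a row under their symbol: CEBPG, and 12 aminoacyl-tRNA synthetases, enzymes that load amino acids onto tRNAs and that are known as ATF4 targets in mouse and human cells. No other listed regulator, such as ATF4 or DDIT3, and none of the 24 other listed targets, such as ASNS, had a row under its symbol, and of the 6 genes of the C/EBP family CEBPG alone had one. None of the 17 genes listed for the unfolded protein response of the endoplasmic reticulum had one either.

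In androgenetic morulae most synthetases had the opposite sign to CEBPG, which was itself not called. Of the 12 synthetases, 10 had a negative log2 fold change against ICSI, with a median of -1.06, where the median over all rows was -0.01. Androgenetic replicate 6, the library with fewest rows detected, was the lowest of its group for 5 of the 6 most abundant synthetases, among them EPRS at 5.68 CPM (31.0 to 57.6 in the other androgenetic libraries) and LARS at 5.36 CPM (55.4 to 95.8). Without it 10 were again negative, with a median of -0.84, and with the number of rows detected as a covariate 10 were negative with a median of -0.76, where the medians of all rows were 0.08 and 0.26. That covariate fit called 0 of the 12 and had 3 lower at an unadjusted p under 0.05. CEBPG had 0.12 in it, which is -0.14 relative to the median of all rows. On that relative measure CEBPG was on the same side as most synthetases. With all libraries and no covariate, TARS, the threonyl-tRNA synthetase, was the 1 called. It was lower, where 1.06% of all rows were called lower. TARS had 57.4, 34.7, 45.0, 39.0 and 29.2 CPM in androgenetic replicates 1, 2, 4, 5 and 6. It had 158.7, 77.5, 173, 141 and 66.8 CPM in parthenogenetic replicates 1, 2, 3, 5 and 6, and 149, 122, 115, 131 and 81.7 CPM in ICSI replicates 1 to 5. Every androgenetic library was below every parthenogenetic and every ICSI library. Its log2 fold change was -1.54 ± 0.35 against ICSI and -1.59 ± 0.35 against parthenogenetic morulae (SE; edgeR adjusted p = 0.0360 and 0.0334). Between the haploid groups 0.837% of all rows were called lower. Leaving out 1 library at a time kept the log2 fold change of TARS between -1.70 and -1.35 against ICSI. Against parthenogenetic morulae it stayed between -1.75 and -1.39. The call held in 8 of 15 such fits in each contrast. Against ICSI it was lost without androgenetic replicate 1, 2 or 5 or ICSI replicate 1, 2, 3 or 4, with edgeR adjusted p up to 0.110. Against parthenogenetic morulae, leaving out replicate 2 or 5 of the androgenetic group ended it, as did leaving out replicate 1, 3 or 5 of the parthenogenetic or replicate 2 or 4 of the ICSI group, with edgeR adjusted p up to 0.0992. The fits that lost the call of TARS also called fewer rows in all. They called 0 to 20 rows against ICSI, where the fit of all libraries called 461. Between the haploid groups they called 14 to 137, where the fit of all libraries called 287. With the number of rows detected as a covariate the log2 fold changes of TARS were -1.13 and -1.29 (edgeR adjusted p = 0.125 and 0.0617). With no filter on low counts both calls were lost (edgeR adjusted p = 0.0569 and 0.0596), and in a fit of the 10 haploid libraries alone so was that between the haploid groups (edgeR adjusted p = 0.130).

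Of the other abundant synthetases, none was called in any contrast by edgeR's fit of all libraries. Against ICSI, androgenetic morulae had log2 fold changes of -0.48 for NARS, -1.33 for SARS, -0.88 for LARS, -1.38 for EPRS and -0.87 for AARS (edgeR adjusted p = 0.443, 0.0969, 0.338, 0.0845 and 0.173), the synthetases for asparagine, serine, leucine, glutamate with proline, and alanine. MARS, for methionine, and YARS, for tyrosine, shared the sign of CEBPG, at 0.80 and 0.12 (edgeR adjusted p = 0.324 and 0.905). In parthenogenetic morulae the median of the 12 was -0.01 against ICSI, with 7 negative and none called (0.003 and 6 negative with DESeq2 size factors), where CEBPG had -0.75. At an unadjusted p under 0.05 there were 7 lower and 0 higher synthetases for androgenetic and 0 in either direction for parthenogenetic against ICSI, where 9.86% and 1.06% of all rows were lower at that p. Between the haploid groups 6 of the 12 were lower at that p, where 9.73% of all rows were. The list was chosen with earlier results of these data known, so these counts are descriptions. The number called lower against ICSI varied with the fit. It was 0 with no filter on low counts and 3 with DESeq2, where 735 of 16375 rows were called lower. Without the library with fewest rows detected in each group edgeR called 5 lower, where 640 of 16871 rows were.

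**Figure D5:**
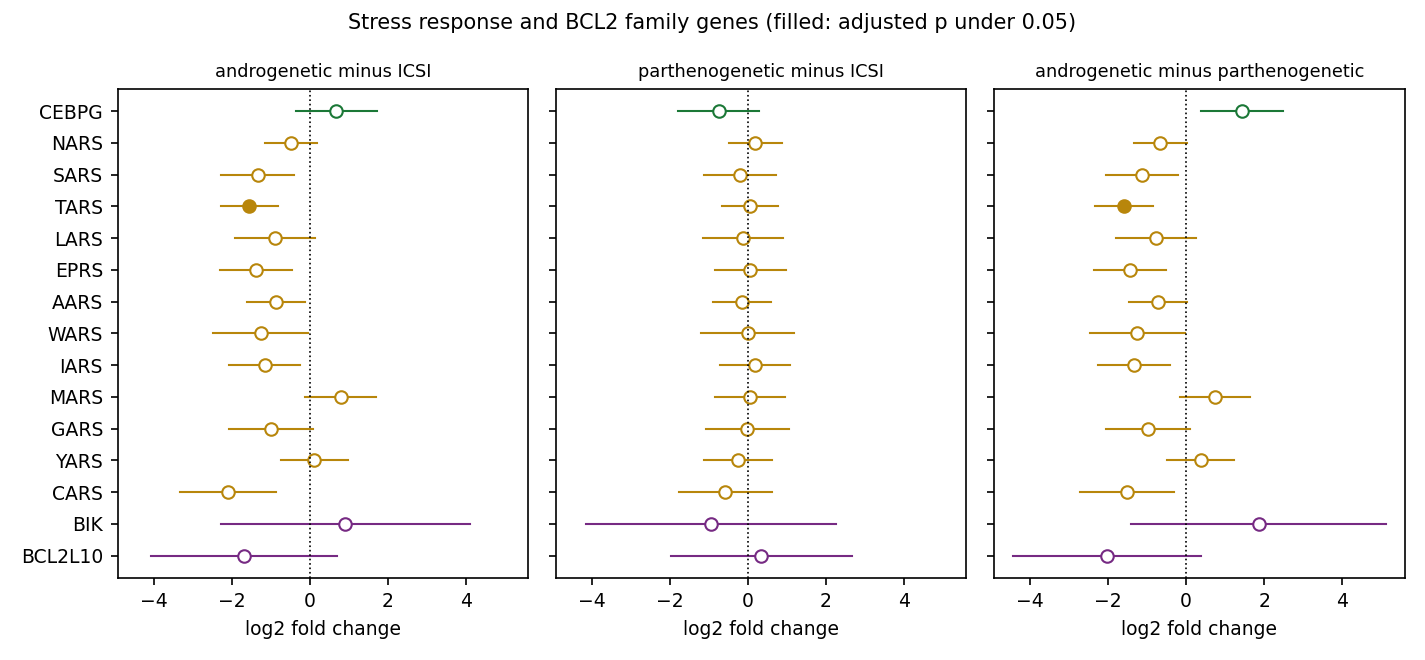
Log2 fold changes with 95% intervals from edgeR for CEBPG, 12 aminoacyl-tRNA synthetases, BIK and BCL2L10 in the 3 contrasts, with a filled point where the adjusted p was under 0.05. TARS is the filled point in androgenetic against ICSI (-1.54) and against parthenogenetic morulae (-1.59), and CEBPG lies on the other side of 0 from most synthetases in both.

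Of 49 genes listed for apoptosis, which covered the BCL2 family, caspases and their control, and the p53 response, BIK and BCL2L10 had a row under their symbol. BCL2L10 is an anti-apoptotic member of the BCL2 family known to be abundant in oocytes and early embryos of mammals. It had 10, 9, 86, 4 and 0 counts in androgenetic replicates 1, 2, 4, 5 and 6. It had 81, 55, 83, 83 and 185 counts in parthenogenetic replicates 1, 2, 3, 5 and 6, and 40, 32, 17, 101 and 176 counts in ICSI replicates 1 to 5. Androgenetic libraries other than replicate 4 were below all parthenogenetic libraries, and androgenetic replicate 4 was the highest of its group for BCL2L10 as it was for BIK. The mean level was 0.892 ± 1.32 CPM for androgenetic, 3.70 ± 2.54 CPM for parthenogenetic and 2.91 ± 3.12 CPM for ICSI libraries (SD, n = 5 each). The log2 fold change was -1.69 ± 1.13 for androgenetic against ICSI, 0.35 ± 1.10 for parthenogenetic against ICSI and -2.04 ± 1.15 for androgenetic against parthenogenetic morulae (SE; edgeR adjusted p = 0.440, 1 and 0.357), so none was called.

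A further 12 rows with known roles in leucine zipper regulation, heat shock, hypoxia, DNA damage or apoptosis were picked by name once the row names had been seen. For androgenetic against ICSI 0 were called, and 2 were higher and 1 lower at an unadjusted p under 0.05 in edgeR, where 9.87% of all rows were higher and 9.86% lower. For parthenogenetic against ICSI 0 were called and 0 passed at that p. For androgenetic against parthenogenetic morulae 1 was called, higher, where 0.916% of all rows were. It was EDA2R, a receptor of the tumour necrosis factor family known as a p53 target in human cells. EDA2R passed the expression filter only through the androgenetic libraries, where it was high, so its call is given as a description. With no filter its edgeR adjusted p was 0.0488. EDA2R had 120, 9, 121, 26 and 167 counts in androgenetic replicates 1, 2, 4, 5 and 6, against 3 counts in parthenogenetic replicate 2 and 0 in the other parthenogenetic libraries. ICSI libraries had 0 to 5 counts. All androgenetic libraries were above all others. The ratio of summed counts, scaled for depth, was 204 between androgenetic and parthenogenetic libraries (exact 95% counting interval 69.3 to 992; edgeR adjusted p = 0.0381), and 56.0 against ICSI (31.0 to 113; edgeR adjusted p = 0.0564). Both intervals cover counting error only and leave out the spread between libraries. The first ratio rests on the 3 counts of parthenogenetic replicate 2, and without that library all parthenogenetic libraries were at 0. The fitted log2 fold change between the haploid groups was 7.25 with all libraries, 9.73 without that library and 6.95 to 9.73 over all such fits. The call against parthenogenetic morulae held in 4 of the 13 fits without 1 library in which EDA2R passed the expression filter, with adjusted p between 0.0305 and 0.111. Leaving out replicate 1, 2 or 5 of the androgenetic group ended it, as did leaving out replicate 1, 3 or 5 of the parthenogenetic or replicate 2, 3 or 4 of the ICSI group. Without androgenetic replicate 4 or 6 EDA2R did not pass the expression filter. It was also lost in a fit of the 10 haploid libraries alone and with the rows detected as a covariate (edgeR adjusted p = 0.0614 and 0.0554). Against ICSI, EDA2R was called by DESeq2 (adjusted p = 0.000467), by limma voom (adjusted p = 0.0157) and by edgeR without parthenogenetic replicate 6 (adjusted p = 0.0444). These fits used the same expression filter, so these calls are descriptions as well.

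Of the same 12 rows, the 6 most abundant were APOPT1, DDIAS, NFIL3, IER5, BAG5 and HILPDA. IER5, an immediate early gene that acts on the heat shock factor HSF1 in human cells, averaged 23.8 ± 16.7 CPM in androgenetic morulae, 4.76 ± 3.40 CPM in parthenogenetic morulae and 6.96 ± 3.43 CPM in ICSI morulae (SD, n = 5 each). Its log2 fold change was 2.32 ± 0.67 against parthenogenetic morulae and 1.77 ± 0.65 against ICSI (SE), and neither was called (edgeR adjusted p = 0.0735 and 0.134). NFIL3, a leucine zipper repressor, averaged 17.7 ± 15.9 CPM in androgenetic, 17.6 ± 4.76 CPM in parthenogenetic and 19.7 ± 8.91 CPM in ICSI morulae (SD). Its androgenetic libraries ran from 0.534 to 41.4 CPM. DDIAS, named for suppressing apoptosis after DNA damage, averaged 49.2 ± 23.7, 63.2 ± 18.8 and 73.0 ± 31.5 CPM in the same order of groups. The co-chaperone gene BAG5 averaged 5.48, 7.32 and 8.75 CPM, and HILPDA, a lipid droplet protein induced by hypoxia, 5.21, 3.91 and 5.55 CPM.

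Rows with a symbol and a mean of at least 5 CPM were ranked by their likeness to each gene, as the Pearson correlation of log2(CPM + 1) over the 15 libraries, which share depth and scaling. For CEBPG, out of 292 rows, COL25A1, a collagen gene, came first at 0.742, followed by CATSPERZ, of the sperm calcium channel complex (0.669), the tyrosine phosphatase gene PTPN20 (0.644), ULBP27, of the family of NKG2D ligands (0.628), and SYCE1L, named for its likeness to a synaptonemal complex gene (0.622). COL25A1 averaged 23.9 CPM in androgenetic morulae, 5.67 CPM in parthenogenetic morulae and 8.08 CPM in ICSI morulae, the same order as for CEBPG. CATSPERZ and PTPN20 shared that order. ULBP27 (15.7, 0.0802 and 28.2 CPM) and SYCE1L (13.7, 4.82 and 4.01 CPM) did not. The rows were picked for their likeness to CEBPG, so a shared order is not independent of it. With the group means subtracted, the ubiquitin ligase gene MARCH5 (0.716), KIAA1468 (0.707), MARCH6 (0.688), COL25A1 (0.603) and ULBP27 (0.602) led, so COL25A1 and ULBP27 were on both lists.

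For BIK, out of 293 rows, the list was ZNF77 (LOC789258; 0.609), PNPLA3 (LOC786474; 0.594), C10H15orf62 (0.592), APOPT1 (0.590) and ZNF154 (0.530). With the group means subtracted it was C10H15orf62 (0.732), APOPT1 (0.652), ZNF154 (0.618), ZNF77 (0.606) and ATP5S (0.596). APOPT1, now named COA8, is a mitochondrial protein first described for its part in apoptosis and known for cytochrome c oxidase assembly. It averaged 66.4 ± 72.9 CPM in androgenetic morulae, 61.1 ± 37.5 CPM in parthenogenetic morulae and 101 ± 49.1 CPM in ICSI morulae (SD, n = 5 each), and edgeR called it in no contrast (adjusted p = 0.705 for androgenetic and 1 for parthenogenetic against ICSI, and 0.956 between the haploid groups).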

How the data were processed

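Per the labels' protocols, cDNA of polyadenylated RNA came from a SMART-Seq HT kit, and libraries from Nextera XT. The authors deposited raw counts per row and library as whole numbers, not normalized. The submitters' processing notes list Trim Galore, cutadapt, STAR and featureCounts; for versions, genome build, annotation and strand setting, the entry is not given in the sources used here. Of the 31999 rows, 27607 carried an Ensembl identifier, 3614 a LOC number and 778 a symbol. Groups came from the labels and replicate numbers from the library titles. Nothing says that replicates came from separate embryos or animals, so p-values measure the spread between these libraries.

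The test was the quasi-likelihood test of edgeR 4.0.16, run in R 4.3.3 on the deposited counts (TMM factors, default expression filter by group, the 15 libraries in a single model with a mean for each group, Benjamini-Hochberg adjustment over the 16375 rows kept, threshold 0.05), after a test on simulated data. Each SE was derived from the fold change and its F statistic. Totals of 19968077 to 28981601 counts per library set the counting error, to which the spread between libraries adds. Alternatives used DESeq2 1.42.0, limma 3.58.1, other scaling factors and filters, and each library left out. Exact permutation tests used scipy 1.17.1. Genes to be named were CEBPG and BIK, the 5 symbol rows most like each, and called or abundant members of the gene lists. Both genes and the lists were chosen with earlier results of these data known.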

Additional observations from a re-analysis of the deposited data

Results flagged for a closer look

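In 12 groups of 5 libraries (CEBPG, BIK, BCL2L10 and TARS in each of the 3 groups), the highest or lowest library was compared with the others. The gap to its nearest neighbour, as a share of the whole range, was set against Dixon's critical value of 0.71, which chance passes in about 1 of 20 groups of normally distributed values. CPM of weakly expressed genes are skewed, so chance may pass it more often here. It was passed 4 times, each time by the highest library, and on the log2(CPM + 1) scale 2 times, by the parthenogenetic libraries named below (0.769 for BIK and 0.800 for BCL2L10). The androgenetic gaps were 0.695 for both genes on that scale.

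BIK stood at 11.6 CPM in androgenetic replicate 4, where the next androgenetic library had 1.17 CPM, a gap of 0.900 of the range. It stood at 2.97 CPM in parthenogenetic replicate 2, where the next had 0.375 CPM (0.874). BCL2L10 stood at 3.23 CPM in androgenetic replicate 4, where the next had 0.553 CPM (0.829). It stood at 8.22 CPM in parthenogenetic replicate 6, where the next had 2.88 CPM (0.876). Androgenetic replicate 4 was the highest of its group for both genes of the BCL2 family, and its closest library was an ICSI library. The closest library of parthenogenetic replicates 2 and 6 was an ICSI library as well.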

How the results depend on the processing

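The fitted CEBPG log2 fold change kept its sign in all 3 contrasts under every alternative run, and that of BIK did not. The CEBPG log2 fold change of androgenetic against ICSI was 0.04 to 0.83 under the alternatives that kept all libraries or left out the 3 with fewest rows. The 0.04 came with library totals and no scaling factor, which moved the median of all rows to -0.54, so CEBPG stood 0.58 above it. With the rows detected as a covariate that median was 0.26 and CEBPG stood at -0.14 relative to it, the opposite direction. Between the haploid groups DESeq2 called CEBPG (1.57, adjusted p = 0.0208) and the other alternatives did not. The BIK value of androgenetic against ICSI was -0.86 with limma voom, and that of parthenogenetic against ICSI was 0.16 without the library with fewest rows detected in each group. In the limma voom contrast the median of all rows was -0.54, so BIK stood at -0.32 relative to it. With each library left out in turn, BIK ran from -1.47 to 1.77 for androgenetic against ICSI and from -0.53 to 3.70 between the haploid groups. TARS ran from -0.11 to 0.20 for parthenogenetic against ICSI, was -0.024 with limma voom and -0.10 with no scaling factor. BCL2L10 ran from -0.18 to 1.22 for that contrast. The cause of these reversals was not tested.

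The number of rows called was less stable. For androgenetic against ICSI (461 rows, 288 higher and 173 lower) it was 1987 with DESeq2, 876 with limma voom, 0 with the number of rows detected as a covariate (3037 at an unadjusted p under 0.05) and 1630 without the library with fewest rows in each group. DESeq2 size factors in edgeR gave 372 higher and 139 lower, and no scaling factor gave 127 higher and 459 lower. For parthenogenetic against ICSI (12 rows) it was 35 with DESeq2 and 6 without the libraries with fewest rows. For androgenetic against parthenogenetic (287 rows) it was 1665 with DESeq2, 703 with limma voom, 27 in a fit of those 10 libraries, 154 with the covariate and 1874 without the libraries with fewest rows. With each library left out in turn the counts ran from 0 to 1077, from 3 to 14 and from 14 to 903 in the same order. The alternatives with no scaling factor and with the companion rows summed were chosen after seeing the data.

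The replicate numbers are shared between groups, and nothing in the labels says that they mark a shared source. Deviations of same-numbered libraries from their group means had correlations of -0.08 to 0.13 for androgenetic and ICSI, 0.06 to 0.11 for parthenogenetic and ICSI and -0.09 to 0.03 for the haploid groups, so not every pair passed 0.1 in any of them. For parthenogenetic and ICSI libraries, 3 of 4 on each side were most like their own number, a hint from the data and not the design. With the number as a replicate block, CEBPG had 0.46 and BIK -0.35 for androgenetic against ICSI. CEBPG had -1.08 and BIK -0.98 for parthenogenetic against ICSI. Between the haploid groups CEBPG had 1.54 and BIK 0.63, and neither gene was called in any contrast. The median of all rows in that fit was -0.26, 0.08 and -0.35 in the same order. Relative to it, CEBPG stood at 0.72, -1.16 and 1.89, and BIK at -0.085, -1.06 and 0.98. That edgeR fit called 0, 3 and 88 rows in these contrasts, and TARS and EDA2R lost their calls. The 0 stood beside 2523 rows at an unadjusted p under 0.05. Depth limits BIK and BCL2L10, whose libraries held 0 to 310 counts, more than CEBPG.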
